A study of Mus musculus with 768 samples.

Results

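Immediate early genes are switched on within minutes of a stimulus, without new protein synthesis, and the 10 described here, Fos, Fosb, Jun, Junb, Jund, Egr1, Ier2, Atf3, Nr4a1 and Zfp36, are also known as genes that enzymatic dissociation of a tissue can induce. They were taken as a named list of 10 among 23997 gene names, and all 10 were present in the count tables of both plates and were read there. Their levels were followed in single mouse mammary cells that held 50000 reads or more and 1000 genes or more. Each plate had 384 wells, of which 86.98% met these limits for the control and 73.70% for N1ICD-EGFP.

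The mice of both groups were of strain C57BL/6 and carried WAP-CRE, a recombinase driven by the promoter of a milk protein gene, so the reporters mark cells in which that promoter has been active. In the control genotype, WAP-CRE; R26-tdTomato, recombination switches on a red reporter, and in WAP-CRE; R26-N1ICD-EGFP it switches on the active intracellular domain of the receptor Notch1 with a green reporter. Inguinal glands were dissociated with the Tumour Dissociation Kit (Miltenyi Biotec), reporter-positive cells were sorted 1 per well, and Smart-Seq2 libraries were made, a full-length protocol. The series' design text names 3 to 4 months with lactation for both genotypes, which may be the age of the mice or a duration, and the labels do not settle which. Each genotype is 1 plate and the labels name no animal, so genotype, plate, reporter colour and handling cannot be told apart, the plates were compared as 1 sample each without a test, and the time between dissection and lysis is not given in the sources used here.

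Fos, Fosb, Jun, Junb and Jund encode the subunits of AP-1, a dimeric transcription factor made of a Fos and a Jun protein or of a pair of Jun proteins. The transcripts are short-lived: signals through MAP kinases, calcium or cAMP reach serum response factor and CREB, which are already bound at the promoters, and a burst of transcription follows. Feedback genes such as the phosphatase Dusp1 and the mRNA-decay protein Zfp36 then end it. In dissociated tissue the same genes mark cells that responded to enzyme, warmth or detachment, so a level in a sorted cell can hold both the state in the gland and the response to handling.

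The promoters of 4 of the genes are shown. They hold letter matches to elements through which such signals can act, and belong to the genes on which the comparisons turn. Fos had the highest level, Fosb the highest ratio between the plates as wholes, and Nr4a1 and Zfp36 went apart from the others in immune-like cells. Each is the 250 bases before the RefSeq start in build GRCm38.p6, 5′ to 3′ on the gene's strand. The coordinates are chr12:85473640-85473889 (+) for Fos, chr7:19310046-19310295 (-) for Fosb, chr15:101266596-101266845 (+) for Nr4a1 and chr7:28379229-28379478 (-) for Zfp36. Capitals mark TGACG or its reverse complement CGTCA, the half-site of the CRE that CREB and ATF proteins bind, TATAAA, the TATA box, and the CArG box that serum response factor binds.
Fos: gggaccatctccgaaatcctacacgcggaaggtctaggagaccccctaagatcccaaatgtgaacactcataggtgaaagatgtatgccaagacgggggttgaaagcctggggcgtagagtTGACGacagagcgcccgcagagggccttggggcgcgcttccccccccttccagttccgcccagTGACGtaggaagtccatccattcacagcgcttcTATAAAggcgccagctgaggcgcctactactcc
Fosb: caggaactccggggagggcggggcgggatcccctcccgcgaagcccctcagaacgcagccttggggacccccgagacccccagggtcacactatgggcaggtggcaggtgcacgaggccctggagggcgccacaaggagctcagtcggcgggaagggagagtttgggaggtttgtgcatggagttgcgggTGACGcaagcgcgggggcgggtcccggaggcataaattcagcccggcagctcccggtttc
Nr4a1: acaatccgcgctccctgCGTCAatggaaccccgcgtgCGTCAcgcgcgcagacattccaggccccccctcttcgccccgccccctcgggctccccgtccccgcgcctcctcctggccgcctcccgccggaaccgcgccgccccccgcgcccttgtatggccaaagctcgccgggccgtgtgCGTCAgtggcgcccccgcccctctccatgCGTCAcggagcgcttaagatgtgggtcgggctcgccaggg
Zfp36: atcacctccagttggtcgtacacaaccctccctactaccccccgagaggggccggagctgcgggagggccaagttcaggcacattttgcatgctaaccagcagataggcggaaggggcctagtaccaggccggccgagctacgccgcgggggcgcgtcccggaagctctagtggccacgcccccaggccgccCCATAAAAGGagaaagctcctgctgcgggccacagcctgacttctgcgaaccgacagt
Of the 10 genes, 8 had a promoter in the table, all but Egr1 and Ier2. The half-site TGACG, searched on both strands, lay in 5 of the 8 (Fos, Fosb, Junb, Atf3 and Nr4a1) and in 17.8% of 32851 promoters of any gene. Nr4a1 held 4 copies and Fos 2, whose first bases lie at -129 and -66. The CArG box was found in Zfp36 alone of the 8, first base at -58, and in 1.47% of all promoters. TATAAA was found in Fos at -33 and in 7.59% of all promoters. The Egr1-type element GCGNGGGCG lay in Fosb, Nr4a1 and Zfp36 and in 4.70% of all promoters. Neither the full CRE TGACGTCA (1.55% of all promoters) nor the AP-1 element TGANTCA (6.75%) was in any of the 8 windows. The Jund window ends at chr8:70697738, upstream of the gene model start used here, 70698949. The bases just before that start were thus not searched for Jund. These are matches of letters in a short window.

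The cells fell into classes by clustering that left out 80 immediate early, AP-1 partner and heat shock genes. In the control plate 210 cells were luminal progenitor/secretory-like (Kit, Elf5 and Aldh1a3 with the caseins), 65 hormone-sensing luminal-like (Esr1, Pgr, Prlr), 52 immune-like (Ptprc, Cd74) and 7 basal-like (Krt14, Oxtr). In the N1ICD-EGFP plate 3 clusters of 61, 41 and 35 cells were luminal progenitor/secretory-like, 7 cells were hormone-sensing luminal-like and 48 immune-like, and 91 cells of 2 clusters with progenitor markers stayed unnamed because Oxtr or Krt14 was among their leading genes. The control immune-like cluster is mixed: it also raised Kit, Aldh1a3 and Csn1s1, its summed level of 15 immune markers ran from 0 to 90947 CPM per cell with a median of 499 CPM, and its median depth was 105437 reads. Kept control cells held a median of 241888 reads and N1ICD-EGFP cells 348469, with 3097 and 2078 genes after thinning to 50000 reads. Hes1, a direct Notch target, stood at 493.5 CPM in N1ICD-EGFP cells beside 180.9 CPM in control cells, Notch1 at 225.04 beside 197.6 CPM, and eGFP reads numbered 3095 beside 64. Reads carry no molecular identifiers, so the intervals given below cover counting error only.

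Together the 10 genes took 2.09% of all reads of N1ICD-EGFP cells and 1.495% of those of control cells. Per length of exon, Fos ranked 2nd of 22669 genes among control cells, at 3712 CPM per kb, and 1st among N1ICD-EGFP cells, at 5197 CPM per kb. In the control plate Egr1 (358.1 CPM per kb), Zfp36 (350.7), Junb (331.8), Jun (288.3), Atf3 (275.4) and Ier2 (258.02) came next at similar levels. Fosb (72.4 CPM per kb), Jund (53.9) and Nr4a1 (53.5) were the lowest of the 10. The order in the N1ICD-EGFP plate had the same 3 genes at the bottom, with Fosb at 134.6, Jund at 58.6 and Nr4a1 at 37.5 CPM per kb. With 1 plate per genotype there is no spread over samples by which neighbours in this order could be told apart.

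**Figure D1:**
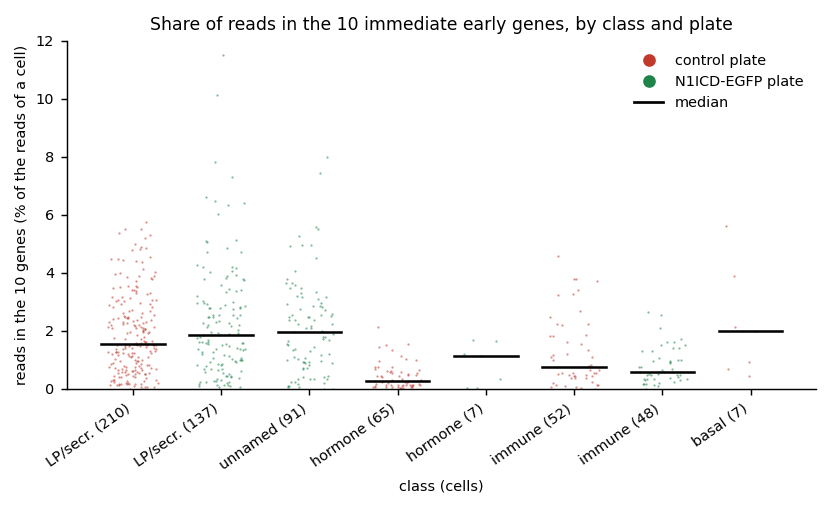
Share of a cell's reads that fell in the 10 immediate early genes (y axis, percent) by class, with the number of cells in brackets on the x axis; points are cells of the control (red) and the N1ICD-EGFP (green) plate and bars are medians. The 65 hormone-sensing luminal-like control cells lie low, with a median of 0.27%, beside 1.55% in luminal progenitor/secretory-like cells of the same plate.

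The share of reads varied widely between cells of a class. In luminal progenitor/secretory-like cells of the control plate it ran from 0.00259% to 5.74% per cell with a median of 1.55%, and in those of the N1ICD-EGFP plate from 0.0595% to 11.5% with a median of 1.86%. Within this class 67.1% of control cells and 72.3% of N1ICD-EGFP cells spent 1% or more of their reads on the 10 genes, and 6 and 4 cells spent less than 0.1%. The cells of both plates overlap almost entirely. Hormone-sensing luminal-like cells of the control ran from 0.0139% to 2.12% with a median of 0.27%, and only 1 of the 65 lay above the luminal progenitor/secretory-like median.

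Fos encodes the founding Fos subunit, which dimerises with Jun proteins. In luminal progenitor/secretory-like cells it ran from 4.46 to 35106 CPM per cell with a median of 10232 among control cells, and from 3.01 to 75535 CPM with a median of 11800 among N1ICD-EGFP cells. Every cell of this class held at least 1 Fos read in both plates, although the lowest cells held only a few CPM. The summed level was 11748 CPM (95% Poisson interval 11718 to 11778) for control cells and 14927 CPM for N1ICD-EGFP cells, a log2 ratio of 0.35. In hormone-sensing luminal-like control cells Fos ran from 0 to 15538 CPM with a median of 1533.

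Fosb, a second Fos subunit that is induced with Fos, ran from 0 to 3617 CPM with a median of 285.4 in luminal progenitor/secretory-like control cells. In the N1ICD-EGFP plate the range was 0 to 8425 CPM and the median 502. The summed levels of 607 and 1043 CPM make a ratio of 1.72, while the share of thinned cells with a Fosb read was 76.7% for control and 71.5% for N1ICD-EGFP cells (81.9% and 77.4% unthinned). The level and the share go opposite ways, so no order is read from the share.

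Jun, the founding Jun subunit, ran from 0 to 5490 CPM with a median of 600 in luminal progenitor/secretory-like control cells and from 0 to 8387 CPM with a median of 1185 in the N1ICD-EGFP plate. Its summed levels were 1137 and 1882 CPM, a ratio of 1.65. Junb, a Jun subunit with weaker activating capacity, ran from 0 to 5641 CPM (median 616) and from 0 to 5451 CPM (median 621), and its medians almost coincide. Jund, the Jun subunit that resting cells also express, was the lowest of the AP-1 genes per length: it ran from 0 to 546 CPM (median 70.3) and from 0 to 800 CPM (median 60.3), with a log2 ratio of summed levels of 0.10. Junb overlaps Prdx2 on the other strand. Jun, Jund and Zfp36 overlap annotated antisense genes, and Atf3 overlaps a small RNA gene on the other strand. Whether counting used strand is not given in the sources used here, so part of these reads may belong to the partner.

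Egr1, a zinc-finger transcription factor of the early growth response, had the second highest summed level of the 10 in this class. It ran from 0 to 9928 CPM with a median of 1333 among control cells and from 0 to 14589 CPM with a median of 1612 among N1ICD-EGFP cells. Ier2, a nuclear protein named for its immediate early response, ran from 0 to 2598 CPM (median 339.5) and from 0 to 3631 CPM (median 545). Both genes were higher in the N1ICD-EGFP plate by less than 1.5 times in this class, with log2 ratios of 0.35 and 0.46.

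Atf3, a stress-induced transcription factor of the ATF family, was not read in many cells and stood at high level in some. Its median was 9.87 CPM in luminal progenitor/secretory-like control cells and 0 in the N1ICD-EGFP plate, while the highest cells reached 7373 and 7236 CPM. The summed levels, 653 and 654 CPM, were equal to within 1%, although 49.5% of thinned control cells and 40.1% of N1ICD-EGFP cells had a read (59.05% and 49.63% unthinned). This equality depends on the processing: over the alternative settings the log2 ratio ran from -0.20 to 0.86. The highest cell gave 9.99% of the Atf3 reads among control and 10.9% among N1ICD-EGFP cells of the class.

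Nr4a1, an orphan nuclear receptor, was read in fewer cells of this class than any other of the 10. Its median was 0 in both plates, the highest cells reached 1423 CPM among control and 1775 CPM among N1ICD-EGFP cells, and the summed levels were 108.2 and 67.9 CPM. A Nr4a1 read was found in 32.9% of thinned control cells and 16.8% of N1ICD-EGFP cells (38.1% and 23.4% unthinned). Zfp36, which binds AU-rich elements and speeds the decay of short-lived mRNAs, ran from 0 to 6668 CPM with a median of 1095 and from 0 to 6129 CPM with a median of 625. Its summed levels were 1376 and 1251 CPM, so Nr4a1 and Zfp36 had log2 ratios under 0 (-0.66 and -0.14), that of Zfp36 on both sides of 0 over the alternatives, beside ratios above 0 for the Fos and Jun genes.

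**Figure D2:**
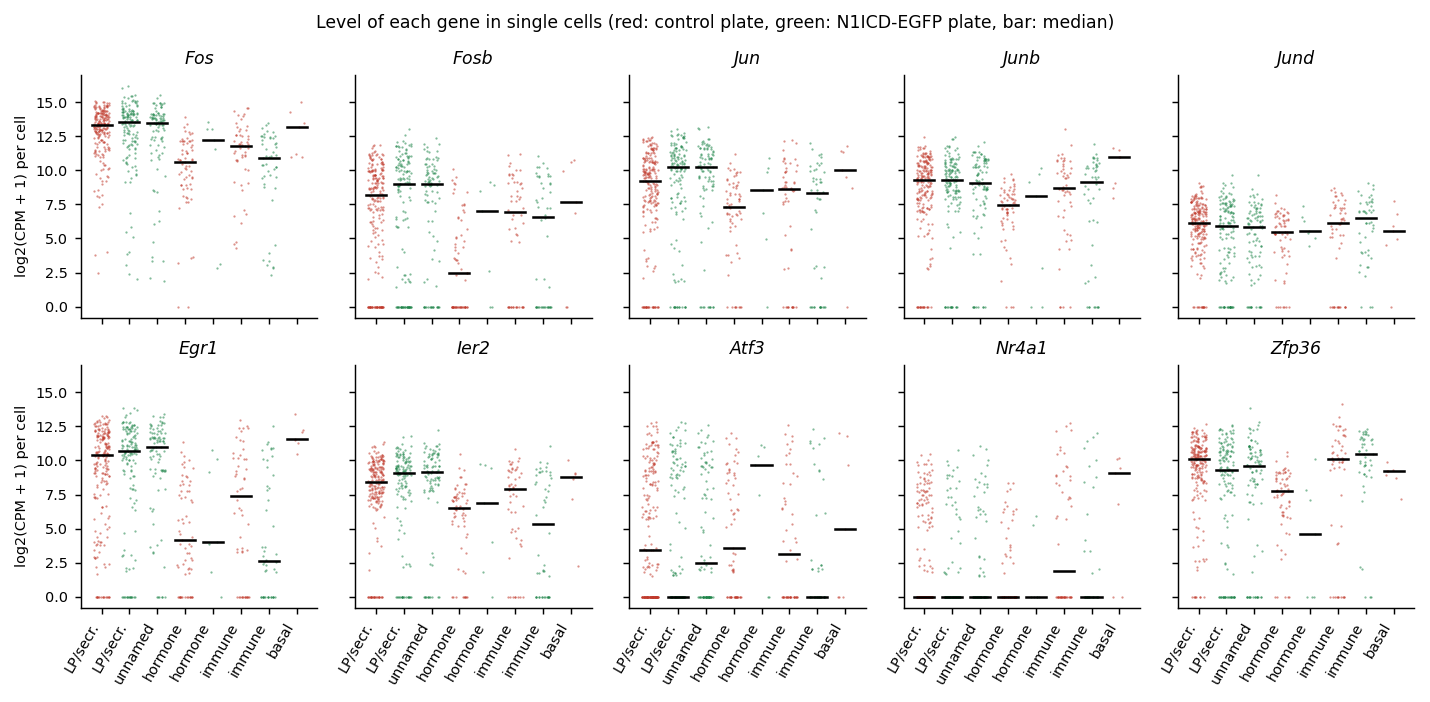
Level of each of the 10 genes in single cells, log2(CPM + 1) on the y axis, by class on the x axis; red points are control cells, green points N1ICD-EGFP cells and bars medians. Fos lies highest in every class, and Atf3 and Nr4a1 have many cells at 0 beside a few at high level.

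Hormone-sensing luminal-like cells, the estrogen receptor and progesterone receptor positive luminal cells, were lower than luminal progenitor/secretory-like cells for all 10 genes in the control plate. The summed share was 0.42% of reads beside 1.93%. Egr1 stood at 228.4 beside 2155 CPM (log2 ratio -3.23), Fosb at 91.1 beside 607 CPM (-2.72), Zfp36 at 280.6 beside 1376 CPM (-2.29) and Fos at 2467 beside 11748 CPM (-2.25). The smallest differences were those of Atf3 (-0.88) and Jund (-0.65). All 10 were lower by 1.5 times or more, where 28.4% of 11115 genes at 5 CPM or more were lower by as much and 27.6% higher. The median log2 ratio was -1.94 over the 10 and 0.02 over all genes tested.

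These 2 classes differ in the number of detected genes, with thinned medians of 4485 in hormone-sensing luminal-like and 2926.5 in luminal progenitor/secretory-like control cells. Among control cells with 3500 to 4500 genes after thinning, the 10 genes took 0.381% of reads in 25 hormone-sensing luminal-like cells and 2.09% in 24 luminal progenitor/secretory-like cells. With 2000 to 3000 genes the values were 1.13% in 3 hormone-sensing luminal-like and 1.82% in 110 luminal progenitor/secretory-like control cells, a smaller gap on few cells, and the part of gene number in the difference was not tested. The 15 immune markers summed to 17.4 CPM in the former class, with 7 of them at 0, and to 36.3 CPM in the latter.

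The N1ICD-EGFP plate held only 7 hormone-sensing luminal-like cells, in which the 10 genes ran from 0.0151% to 1.68% of reads per cell with a median of 1.12%. No cell lay above the luminal progenitor/secretory-like median of that plate. Of the 10 genes 9 were lower by 1.5 times or more, where 46.9% of 11271 genes were, and the median log2 ratio was -1.28 beside -0.41 over all genes tested. Atf3 was the exception, at 1196 beside 654 CPM (log2 ratio 0.87), where 27.9% of genes were higher by as much. The highest cell of the 7, taken for each gene separately, gave 80% of the Nr4a1 reads, 79.8% of those of Zfp36 and 58% of those of Egr1. Without the highest cell of the gene, Zfp36 stood at 77.8 CPM instead of 301.9 CPM and Egr1 at 348.04 instead of 648 CPM. Nr4a1 stood at 1.71 instead of 7.21 CPM.

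Compared between the plates, hormone-sensing luminal-like cells had 7 of the 10 genes higher in the N1ICD-EGFP plate by 1.5 times or more and 1 lower, where 26.05% of 10465 genes were higher and 40.6% lower. Fos stood at 6230 CPM in the 7 N1ICD-EGFP cells and 2467 CPM in the 65 control cells, Fosb at 281.01 and 91.1 CPM and Ier2 at 450.0 and 147.7 CPM. Nr4a1 was the lower gene, on 20 reads in all.

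**Figure D3:**
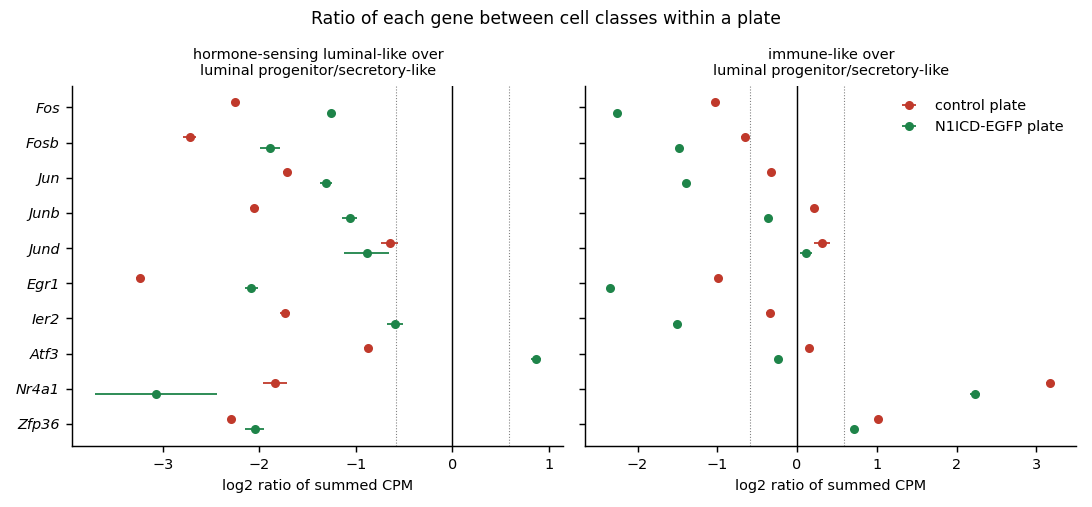
Log2 ratio of the summed CPM of each gene (x axis) between hormone-sensing luminal-like (left) or immune-like cells (right) and luminal progenitor/secretory-like cells of the same plate; points are the control (red) and the N1ICD-EGFP plate (green), lines are intervals for counting error, and dotted lines mark 1.5 times. All 10 control points lie below 0 on the left, and Nr4a1 lies furthest above 0 on the right in both plates.

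Immune-like cells had a different order of the 10 genes. Nr4a1, which antigen-receptor and macrophage signals induce, stood at 985 CPM in the 52 immune-like and 108.2 CPM in the luminal progenitor/secretory-like control cells (log2 ratio 3.17), and at 321.995 beside 67.9 CPM in the N1ICD-EGFP plate (2.23). Zfp36 was higher in immune-like cells of both plates (log2 ratios 1.02 and 0.72), and Fos was lower in both (-1.03 and -2.26). In the control 2 of the 10 genes were higher and 3 lower by 1.5 times or more, where 35.4% and 29.95% of 12597 genes were. In the N1ICD-EGFP plate 2 were higher and 5 lower, where 29.3% and 43.9% of 11863 genes were. These shares are near the background, so the counts are no result about the 10 genes as a group. Nr4a1 reads were concentrated: the median immune-like cell held 6.72 CPM among control and 0 among N1ICD-EGFP cells, and the highest cells held 6958 and 4040 CPM.

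The control immune-like cluster held 24 to 26 cells with both plates clustered together or at a resolution of 1.2, and was not named at a resolution of 0.5. The log2 ratio of Nr4a1 to luminal progenitor/secretory-like cells was 3.78 and 3.62 in those smaller groups, and between 1.59 and 1.71 in the N1ICD-EGFP plate under the other clusterings. That of Zfp36 in the N1ICD-EGFP plate was between 0.42 and 0.65 under them, past 1.5 times only with both plates clustered together. Between the plates 0 of the 10 genes were higher and 4 lower by 1.5 times or more in immune-like cells of the N1ICD-EGFP plate, where 26.03% and 44.5% of 12400 genes were. The immune markers summed to 50108 CPM in N1ICD-EGFP and 23021 CPM in control immune-like cells, and the part of this difference in the values of the 10 genes was not tested.

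Within the N1ICD-EGFP plate the immune-like cells made up 3 clusters that differed in the 10 genes. The 15 cells led by macrophage genes (C1qa, Csf1r, Mrc1) spent 1.36% of their reads on them, the 25 cells led by B-cell genes (Cd79a, Ms4a1) 0.64%, and the 8 cells led by T-cell genes (Cd3d, Cd3g) 0.27%. Atf3 stood at 1339 CPM in the first, in 12 of 15 cells, and at 0.789 CPM (6 reads) and 0.834 CPM (2 reads) in the others. Zfp36 was read in every macrophage-gene cell, at 202.8 to 5007 CPM. Fosb stood at 619, 263.6 and 5.004 CPM in the same order. Fos was read in every cell of all 3 clusters, at 4718, 2294 and 1098 CPM.

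The 7 basal-like control cells spent 2.09% of their reads on the 10 genes, from 0.428% to 5.62% per cell. Egr1 was the highest of any class there at 4278 CPM, between 1453 and 10620 CPM per cell, and Jun stood at 1485 CPM. A high Nr4a1 level was not particular to immune-like cells. Without its highest cell, which gave 33.9% of the reads, Nr4a1 stood at 437.4 CPM in the basal-like cells. The same measure was 97.9 CPM in luminal progenitor/secretory-like control cells. The 91 unnamed cells of the N1ICD-EGFP plate spent 2.33%, and 47 of them lay above the luminal progenitor/secretory-like median. Only Nr4a1 differed from luminal progenitor/secretory-like cells by 1.5 times or more there, at 132.02 beside 67.9 CPM, where 22.8% of 11574 genes were higher and 20.8% lower. The 2 unnamed clusters were unlike each other, with 2.75% in the 52 cells led by Fhl2, Rasd1 and Oxtr and 1.64% in the 39 led by Stra6, Col6a2 and Krt14.

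Between the plates as wholes, 3 of the 10 genes were higher in the N1ICD-EGFP plate by 1.5 times or more and 0 lower, where 22.5% of 12021 genes were higher and 16.7% lower. They were Fosb at 840 beside 452 CPM (log2 ratio 0.89), Jun at 1612 beside 919 CPM (0.81) and Ier2 at 630 beside 393 CPM (0.68). Egr1 (2354 beside 1606 CPM, 0.55), Fos (12224 beside 8731 CPM, 0.49) and Junb (959 beside 763 CPM, 0.33) lay under that size. Zfp36 (0.21), Atf3 (0.17) and Jund (0.12) were nearer 0, and Nr4a1 stood at 131.5 beside 187.8 CPM (-0.51). The median was 0.41 over the 10 and 0.07 over all genes tested. In bulk sums such as these, more cells of a class with high levels and a higher level per cell cannot be told apart: hormone-sensing luminal-like cells were 2.47% of N1ICD-EGFP and 19.5% of control cells.

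Within luminal progenitor/secretory-like cells 2 genes were higher by 1.5 times or more, Fosb and Jun, and 1 lower, Nr4a1, where 24.7% of 11194 genes were higher and 17.5% lower. The median was 0.27 over the 10 and 0.11 over all genes. The 3 calls are near the background share. The class also differed in its markers: the 10 progenitor markers summed to 5020 CPM in N1ICD-EGFP and 17580 CPM in control cells. The 10 secretory markers summed to 9311 and 34479 CPM. The part of this difference in the values of the 10 immediate early genes was not tested. Fosb kept a ratio above 1.5 times in all 16 alternative settings (log2 ratios 0.67 to 0.84) and Jun in 15 of 16 (0.56 to 0.89). Nr4a1 did in 8 of 16 (-1.06 to -0.03), and Atf3, Jund and Zfp36 had ratios on both sides of 0. Nr4a1 over all cells turned round between the sides of the plates, at -1.35 in well columns 1 to 12 and 0.18 in columns 13 to 24.

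**Figure D4:**
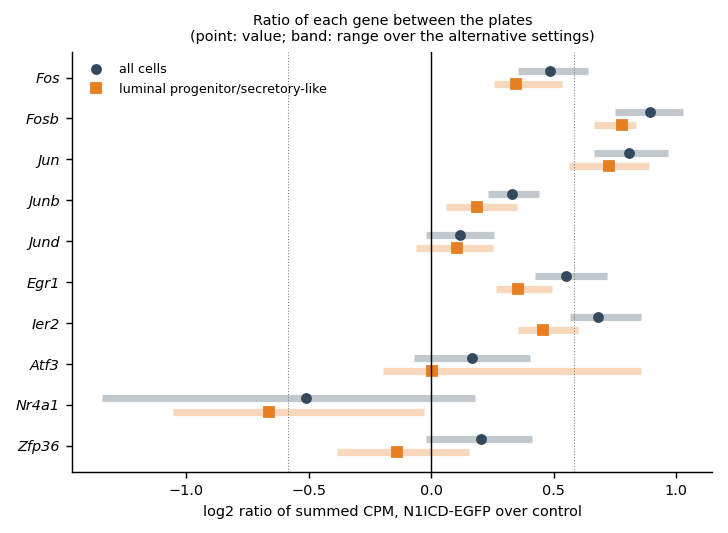
Log2 ratio of the summed CPM of each gene between the N1ICD-EGFP and the control plate (x axis), over all cells (dark circles) and luminal progenitor/secretory-like cells (orange squares); bands span the alternative processing settings and dotted lines mark 1.5 times. The bands of Fosb and Jun stay to the right of 0.5 and those of Nr4a1, Atf3, Jund and Zfp36 reach or cross 0.

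Position, depth and reporter moved with these values to different degrees. Luminal progenitor/secretory-like control cells spent 1.79% of their summed reads on the 10 genes in columns 1 to 12 and 2.09% in columns 13 to 24. N1ICD-EGFP cells of the class spent 2.19% and 2.69%, so their summed share was higher on both sides of the plates. The median cell was not. In columns 1 to 12 it spent 1.946% in the N1ICD-EGFP and 1.396% in the control plate. In columns 13 to 24 the order was reversed, at 1.657% in the N1ICD-EGFP and 1.923% in the control plate. The wells left out for few reads or genes held 0.733% in the control plate, 50 wells, and 0.285% on the N1ICD-EGFP plate. Among cells with 2000 to 3000 genes after thinning the class share was 1.82% in 110 control cells and 2.29% in 52 N1ICD-EGFP cells. In the N1ICD-EGFP plate the 51 cells of the class with an eGFP read spent 2.70% (median cell 2.53%) and the 86 without 2.24% (median 1.66%), with ranges that overlap. In the control plate, whose genotype carries no EGFP allele, 47 of 210 cells of the class also held eGFP reads, at most 2 per cell. The part of each of these in the difference between the plates was not tested.

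Most of the 10 genes were read in many of the cells. Singly, they were read in 34.7% (Nr4a1) to 98.2% (Fos) of thinned control cells. The share of cells with 8 or more that independent reading would give was not computed. After thinning to 50000 reads, 8 or more of them were read in 58.98% of control cells (Clopper-Pearson interval 53.5 to 64.3) and in 49.47% of N1ICD-EGFP cells (43.5 to 55.5), and unthinned in 69.16% and 61.84%. The control share is the higher although most summed levels were lower, so no order is read from it. All 10 were read in 68 control and 29 N1ICD-EGFP cells, and no cell lacked all 10 (0 cells, which allows shares of up to 0.898% and 1.06%). In luminal progenitor/secretory-like cells the shares with 8 or more were 64.8% and 49.6%, in hormone-sensing luminal-like control cells 41.5%, and in immune-like cells 55.8% and 29.2%.

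Levels of most of the 10 genes ranked the cells alike to a moderate degree, and those of Jund did so least. Over the 210 luminal progenitor/secretory-like control cells, thinned to the same depth, the 45 pairs of the 10 genes had a median Spearman's rho of 0.48 (0.03 to 0.73), and over the N1ICD-EGFP cells of this class of 0.31 (0.15 to 0.76). All 45 pairs were above 0 in both. Over all pairs of the 5675 and 3796 genes read in at least 20% of these cells the medians were 0.02 and 0.05, with 95% of pairs under 0.14 and 0.20. Cells of a plate share a library preparation and vary in quality, so these values are a description of the plates. The highest pairs were Fos with Egr1 (0.73), Fos with Fosb (0.71) and Junb with Egr1 (0.68) over control cells and Fos with Fosb (0.76) and with Junb (0.58) over N1ICD-EGFP cells.

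**Figure D5:**
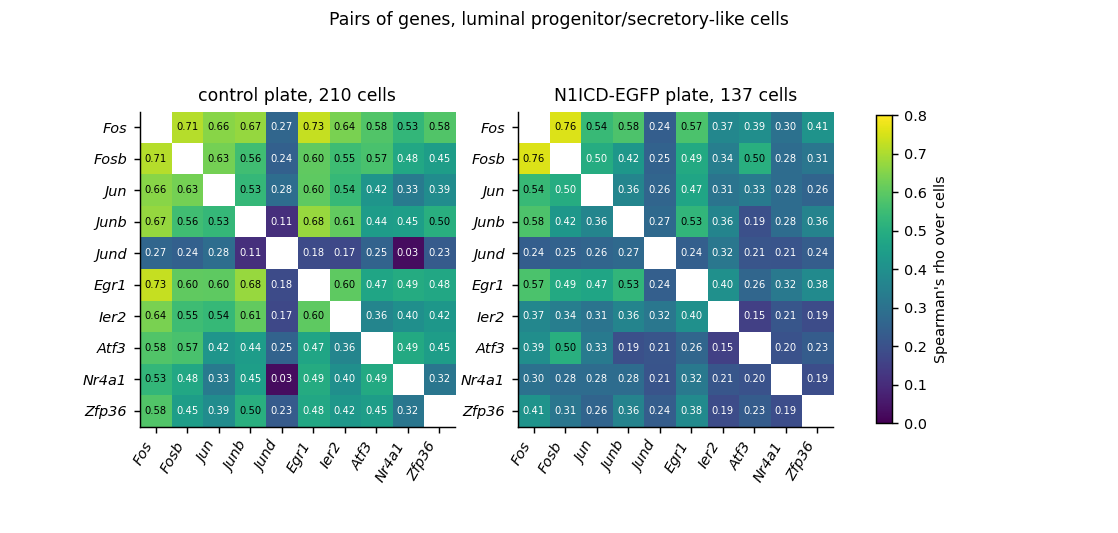
Spearman's rho between each pair of the 10 genes over luminal progenitor/secretory-like cells of the control (left, 210 cells) and the N1ICD-EGFP plate (right, cells of 3 clusters), after thinning; colour and digits give rho. Fos has the brightest row and Jund the darkest in the control, with values of 0.03 to 0.28 for Jund.

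Fos ranked cells most like the mean of the other 9 genes, with rho 0.85 over control and 0.69 over N1ICD-EGFP cells, followed by Egr1 (0.75 and 0.62) and Fosb (0.73 and 0.67). Jund was the least like them (0.23 and 0.35). The median rho was 0.33 in the 65 hormone-sensing luminal-like control cells, 0.41 in the 52 immune-like control cells, 0.41 in the 91 unnamed cells and 0.15 in the 48 immune-like N1ICD-EGFP cells, where Jun and Jund went apart (-0.32). In luminal progenitor/secretory-like cells the mean score of the 10 genes had rho 0.19 and 0.39 with the number of genes detected and 0.10 and 0.34 with total reads, and -0.10 and -0.03 with the summed caseins Csn1s1, Csn1s2a, Csn2 and Csn3. Its rho with well column was 0.05 and 0.01 and with well row -0.00246 and 0.09.

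Among 3728 other genes read in at least 20% of luminal progenitor/secretory-like cells of both plates, the 10 most like the mean score included Dusp1, Klf4, Btg2, Tob1, Nfkbiz, Ier3, Ubb, Pim3 and Ppp1r15a, ranked by the mean of both plates' rho. Dusp1, the phosphatase that inactivates MAP kinases, led with 0.50 over control and 0.45 over N1ICD-EGFP cells. Btg2, an antiproliferative gene, had 0.59 and 0.18, and Klf4, a Krüppel-like transcription factor, 0.48 and 0.30. Tob1, which is related to Btg2, had 0.39 and 0.35, and the polyubiquitin gene Ubb had 0.25 and 0.43. The median over the 3728 genes was 0.02 over control and 0.09 over N1ICD-EGFP cells. Of the 10 most like genes, 6 were on a list of 42 other immediate early genes. That list held 25 of the 5675 genes read in at least 20% of control cells of the class. For N1ICD-EGFP cells it held 26 of 3796. Some genes of the list ranked far lower, such as Myc (1831st) and Sgk1 (2131st).

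Of these 42 other immediate early genes, 39 reached 5 CPM, and 11 were higher and 7 lower in the N1ICD-EGFP plate by 1.5 times or more, where 22.5% and 16.7% of all genes tested were, with a median log2 ratio of 0.27 beside 0.07. Klf4 stood at 289.06 beside 92.6 CPM, Klf2 at 126.8 beside 44.2 CPM, Myc at 203.5 beside 101.6 CPM and Nfkbia, the inhibitor of NF-κB, at 893 beside 482 CPM. Errfi1, a feedback inhibitor of the EGF receptor, was lower at 81.3 beside 195.1 CPM, as were the kinase gene Sgk1 (180.9 beside 381.3 CPM), Cebpd (234.65 beside 394 CPM) and Cebpb (129.7 beside 204.3 CPM). In hormone-sensing luminal-like against luminal progenitor/secretory-like control cells 30 of 36 were lower and 3 higher, where 28.4% and 27.6% of all genes tested were, with a median of -1.51 beside 0.02, and Dusp1 stood at 148.5 beside 553 CPM there.

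Genes that act upstream or in other stress responses had other values. Between the plates the counts below stand beside the same 22.5% higher and 16.7% lower and median of 0.07 over all genes tested. Of 23 upstream and feedback genes tested 3 were higher and 8 lower in the N1ICD-EGFP plate, with a median log2 ratio of -0.34. Mkl2, a serum response factor coactivator, stood at 257.9 beside 148.98 CPM, while Elk4 (6.54 beside 25.4 CPM), Crem (16.1 beside 52.8 CPM), Creb1 (50.6 beside 100 CPM) and Mapk9 (60.3 beside 105.6 CPM) were lower. Of 10 AP-1 partner genes 3 were higher and 1 lower (median -0.07), the latter Fosl2 at 52.5 beside 89.6 CPM. Of 15 heat shock genes 0 were higher and 2 lower, Hspa1b at 4.03 beside 24.3 CPM and Dnajb4 at 58.1 beside 110.8 CPM, with a median of -0.00366. In hormone-sensing luminal-like against luminal progenitor/secretory-like control cells the heat shock genes had a median of 0.14, with 4 higher and 1 lower of 15 (27.6% and 28.4% of all genes tested), beside -1.94 for the 10 immediate early genes. The pairs of heat shock genes had a median rho of 0.08 and 0.09 over luminal progenitor/secretory-like cells of the control and the N1ICD-EGFP plate. Pairs of the other immediate early genes were as low, at 0.10 and 0.07, beside 0.48 and 0.31 for the 10 genes.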

How the data were processed

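Reads of Smart-Seq2 libraries were aligned with STAR to mm10, per the submitters' processing notes, and the authors deposited 1 table of raw counts per plate. The counting tool and its strand setting are not stated in the labels. Of 24490 rows, 492 repeated a gene name and were summed by name, with eGFP kept apart. Cells with 50000 reads and 1000 genes were kept. CPM is computed here from summed counts, log2 ratios use a pseudocount of 1 CPM, and a gene counts as higher or lower at 1.5 times, if at 5 CPM in either group. Each plate is 1 sample, so no test was run. Shares of cells and correlations use cells thinned to 50000 reads without replacement. No doublets were called.

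Each plate was clustered with scanpy 1.11.5 and leidenalg 0.10.2 (2000 variable genes, 15 components, 15 neighbours, resolution 0.8), without 80 immediate early, AP-1 partner and heat shock genes. Clusters took the name of the class with most raised markers, at least 3, unless another class led their 10 leading genes or they were shallow without a marker there. A raised marker is read in 20% of the cells and lies 1 log2 unit above the mean over clusters. Gene models are from GENCODE for GRCm38, promoters from RefSeq for GRCm38.p6. Of each other list, up to 4 genes in each direction with the largest ratio were named, at 20 CPM and read in 20% of cells of the higher plate. The members, lists and markers were chosen with earlier results of these data known. The procedure was tested on simulated data. Alternatives changed cell filters, well columns, possible doublets, scaling, thinning, pseudocount, CPM minimum and clustering. No wells had identical values. Of the 10 genes most like the mean score, 1 is not reported here.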

Additional observations from a re-analysis of the deposited data

Results flagged for a closer look

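Atf3 went opposite ways in the plates when hormone-sensing luminal-like were set against luminal progenitor/secretory-like cells, with a log2 ratio of -0.88 in the control (65 cells) and 0.87 in the N1ICD-EGFP plate (7 cells). The difference was not tested.

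Between the plates, Fos, Egr1 and Ier2 were higher in the N1ICD-EGFP plate in hormone-sensing luminal-like cells and lower in immune-like cells. The log2 ratios were 1.34 and -0.88 for Fos, 1.501 and -1.005 for Egr1, and 1.60 and -0.71 for Ier2. These differences were not tested, the former rest on 7 N1ICD-EGFP cells, and the control immune-like cluster is mixed.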

How the results depend on the processing

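No paired analysis was possible because each genotype is 1 plate and the results come from no test. Over 21 settings 40 summary values moved, counts by more than 1.5 times and the others beyond an interval over reads or cells, and 0 reversed. The cause of the moves was not tested. Over all cells, 5 of the 10 genes were higher without immune-like cells (3 otherwise) and 1 lower in columns 1 to 12 (0 otherwise). The median log2 ratio of 0.41 was 0.54 without immune-like cells, 0.30 with the mean of per-cell CPM, 0.30 with thinning before summing and 0.34 with scaling by the median ratio. In luminal progenitor/secretory-like cells 1 gene was higher in columns 13 to 24 (2 otherwise). There 0 were lower (1 otherwise) with a looser filter, in columns 1 to 12, with the stress genes left in the clustering, with both plates clustered together, and at resolutions of 0.5 and 1.2. The same held with the unnamed clusters joined to the class and with 2000 to 3000 genes per cell, both chosen after seeing the data. The median of 0.27 was 0.17 in columns 1 to 12, 0.20 with per-cell means, 0.21 with thinning, 0.18 with median-ratio scaling, 0.32 with the stress genes left in, 0.32 with joint clustering, 0.42 and 0.32 at resolutions of 0.5 and 1.2, 0.22 with the unnamed clusters joined and 0.32 with 2000 to 3000 genes.

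The class comparison was added after seeing the data, with its alternatives. The control median of -1.94 for hormone-sensing luminal-like over luminal progenitor/secretory-like cells was -1.83 and -2.32 in columns 1 to 12 and 13 to 24, -1.89 with per-cell means, -1.85 with thinning, -1.99 with median-ratio scaling, -1.87 with a pseudocount of 5 and -2.49 at 3500 to 4500 genes. The N1ICD-EGFP median of -1.28 was -1.43 with per-cell means, -1.43 with thinning, -1.39 with median-ratio scaling and -1.54 at matched genes. The share of cells with 8 or more genes read was 44.81% and 42.47% with the looser filter and 69.16% and 61.84% unthinned. Depth limits shares of cells: thinning took the N1ICD-EGFP share with a Jund read from 86.9% to 72.1% and that with a Nr4a1 read from 28.6% to 21.2%.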

Other observations

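Hes1, the Notch target used to check the genotype, ranked 15th of 3728 genes in likeness to the mean score of the 10 immediate early genes over luminal progenitor/secretory-like cells, with Spearman's rho 0.27 over control and 0.28 over N1ICD-EGFP cells. It was singled out after its values were seen. Its level in this class was 615.8 CPM in N1ICD-EGFP and 227.2 CPM in control cells.

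Among the 40 genes most like the score, 11 were on the list of other immediate early genes. The lowest and highest median share by well column were 0.36% (column 1, 14 cells) and 2.61% (column 23, 13 cells) in the control. In the N1ICD-EGFP plate they were 0.54% (column 6, 11 cells) and 2.91% (column 5, only 5 cells).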
